A study of Sus scrofa with 12 samples.

Results

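Described here are 9 genes of the growth hormone axis and the somatostatin system in the hypothalamus of pigs, namely GHRH, GHRHR, SST, SSTR1, SSTR2, SSTR3, GHR, IGF1 and IGF1R. They were taken by symbol from a table of 19256 mRNA genes. The unit is TPM, an abundance normalized for transcript length and for the total of the library, and the TPM of all annotated transcripts of a gene were added up. All 9 symbols were matched, and 8 of the 9 genes reached 1 TPM in at least 3 of the 6 libraries and were tested. GHRHR did not reach this level and is given by its values only.

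The tissue came from 3 germ-free (GF) pigs, which had no gut microbiota, and from 3 pigs colonized with gut microbiota (CG), which were born germ-free and received fecal microbiota of 1 donor pig from day 3 to day 7 of life. All pigs were piglets of 1 Chinese Bama sow, taken by hysterectomy, kept in sterile isolators on sterile feed, labelled male and 45 days old (the study's methods give a slightly lower age). RNA was made from a part of each hypothalamus, and the sources used here do not say which nuclei that part held. The isolators housed several piglets each, so an isolator and its microbial status cannot be told apart, and p-values measure the spread between these pigs of a single litter.

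Growth hormone-releasing hormone (GHRH), made by neurons of the arcuate nucleus, reaches the anterior pituitary through the portal blood and drives the release of growth hormone. Somatostatin (SST), made for this purpose mainly by periventricular neurons, inhibits that release through somatostatin receptors. Growth hormone acts through its receptor GHR and raises insulin-like growth factor 1 (IGF1), which acts through IGF1R, and both hormones feed back on the hypothalamus and the pituitary.

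The libraries differed in regional markers. Of 12 listed markers of hypothalamic nuclei 11 were matched, and their summed level was 1.14, 1089 and 1003 TPM in GF replicates 1, 2 and 3, against 954, 2385 and 1088 TPM in CG replicates 1, 2 and 3. Most of that sum was OXT in every library but GF replicate 1. OXT was at 0.14, 1005.5 and 870 TPM in GF libraries, against 582, 1836 and 740 TPM in CG libraries. It was the only tested marker of this list whose groups overlapped. At 0 TPM were 6, 2 and 2 of the 11 markers in the GF libraries, against 0 in each CG library. AGRP, a peptide of the arcuate nucleus, was at 0, 0.28 and 0 TPM in GF libraries and at 8.83, 23.5 and 15.3 TPM in CG libraries. The 8 thalamus markers summed to 995, 109 and 699 TPM in GF libraries and to 101 to 129.9 TPM in CG libraries. The 9 matched of 11 anterior pituitary markers summed to 2.46 to 13.4 TPM in GF libraries, and to 262, 25.95 and 5442 TPM in CG replicates 1, 2 and 3. The 3 matched Y-linked genes summed to at most 0.03 TPM in GF libraries and to 29.0, 35.1 and 0.04 TPM in CG libraries, although all pigs were labelled male, and sex was not part of the fit. GF replicate 1 thus stood apart from its group in the summed hypothalamus markers, and GF replicate 2 in the thalamus markers. CG replicate 3 stood apart in the pituitary markers and the Y-linked genes. Low in all GF libraries, in contrast, were AGRP, BSX, NR5A1 and SIX6, each under 1 TPM there. NKX2-1 was at 0.10, 5.49 and 3.11 TPM in GF libraries, against 35.4, 35.5 and 40.0 TPM in CG libraries. By the fit described below, 5 of the 10 tested hypothalamus markers were called lower in GF pigs, against 2.42% of all tested genes. Of the 10, 9 lay below CG pigs without overlap, against 32.8%. AGRP, BSX, NR5A1 and SIX6 entered the test only through CG libraries, so they had to differ. The part of these differences in the results was not tested. Mitochondrial mRNAs held 17.8% of the TPM in each GF library, against 8.17% to 11.8% in CG libraries.

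The question addressed by the comparison is which hypothalamic genes differ between pigs without and with gut microbiota. Values of log2(TPM + 1) were fitted across all tested genes, and a gene was called where its adjusted p was under 0.05 and its log2 fold change (log2FC, GF over CG) was at least 1 in size. Among the 8 tested genes, 1 (GHRH) was called lower in GF pigs and 0 were called higher, while 2.42% of all tested genes were called lower and 2.89% were called in either direction. At an unadjusted p under 0.05, 4 of the 8 were lower and 0 higher in GF pigs (limma), against 26.6% and 4.31% of all tested genes. Log2FC values were below 0 for 8 of 8 genes, SSTR3 turning above 0 in some alternative settings, against 72.7% of all tested genes. The GF values were all below the CG values for 4 of the 8 (GHRH, SST, SSTR1 and IGF1R), against 32.8% of all tested genes, and the reverse held for 0 of them, against 5.42%. The median log2FC was -0.80 over the 8 genes and -0.23 over all tested genes.

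**Figure D1:**
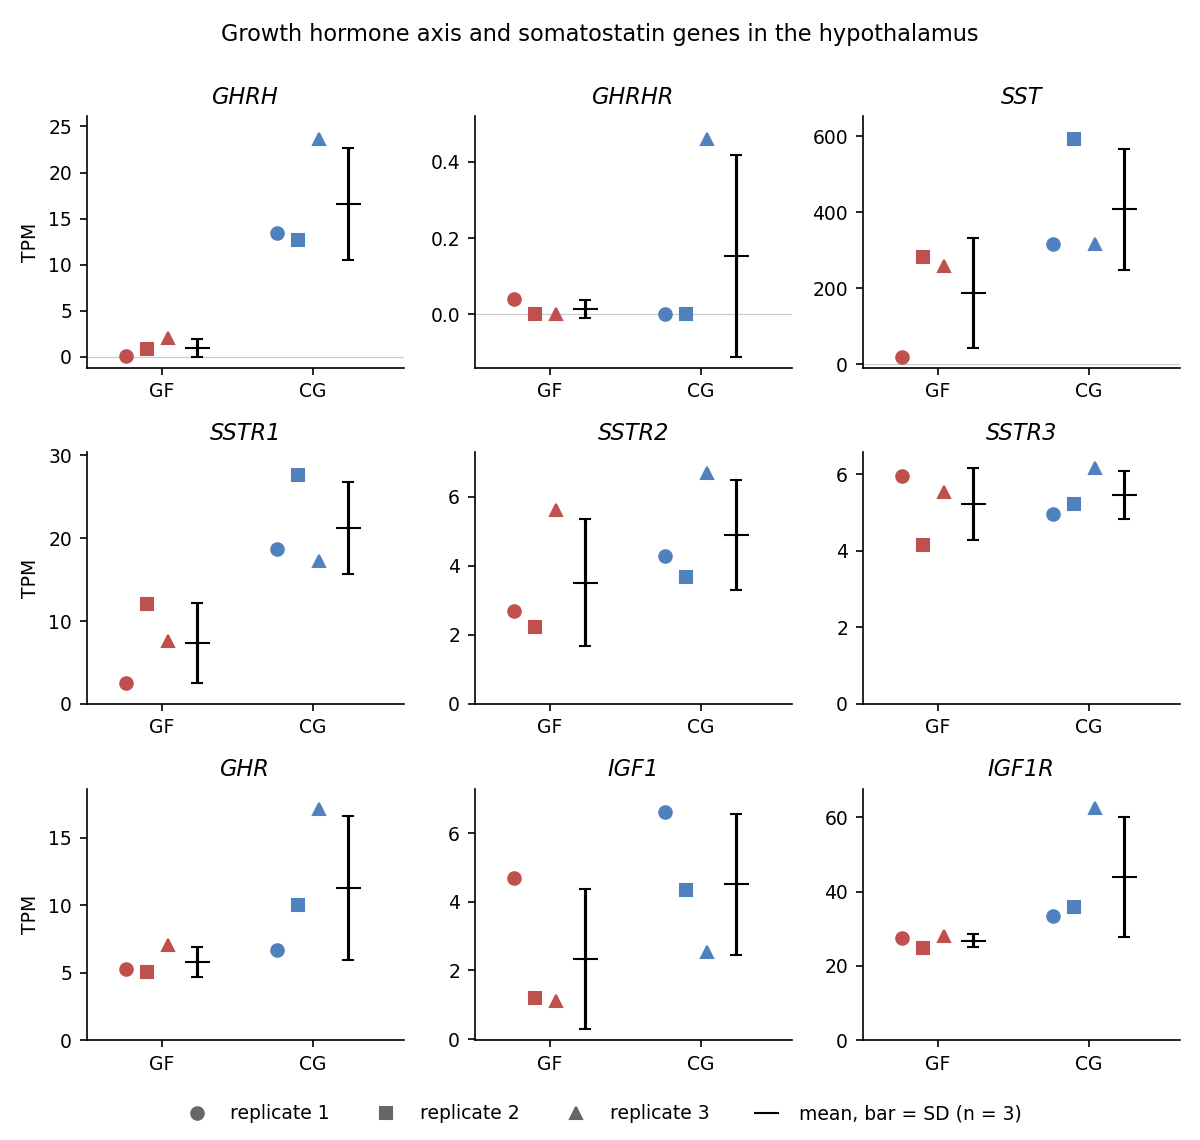
TPM of the 9 genes in each library of GF (red) and CG (blue) pigs, with symbols for the replicates and black bars for the mean ± SD (n = 3). GHRH stood at 2.05 TPM or less in GF pigs and at 12.7 TPM or more in CG pigs, while the groups of SSTR2, SSTR3, GHR and IGF1 overlapped.

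Because TPM are shares of a whole, the offset of the median gene was also taken out. With each library centred on its median, the median log2FC of all tested genes moved to 0.01, and those of the 8 genes were -2.97 (GHRH), -1.51 (SST), -1.33 (SSTR1), -0.18 (SSTR2), 0.18 (SSTR3), -0.53 (GHR), -0.58 (IGF1) and -0.39 (IGF1R). Below 0 in this setting were 7 of the 8 genes, all but SSTR3, and 48.7% of all tested genes. GHRH was the gene of the 8 that passed here too (adjusted p = 0.0181).

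The levels of the 9 genes, per transcript length, spanned a wide range. SST had the highest mean over the 6 libraries, 298 TPM, above 97.8% of tested genes. IGF1R followed at 35.4 TPM and SSTR1 at 14.3 TPM. GHRH (8.80 TPM) and GHR (8.54 TPM) had close means, but GHRH lay below GHR in all GF libraries and above it in all CG libraries. SSTR3 (5.33 TPM), SSTR2 (4.20 TPM) and IGF1 (3.42 TPM) stood lower, with ranges over the libraries that overlapped, and GHRHR was at 0.083 TPM. Of the 8 tested genes, the lowest library was GF replicate 2 for 4, GF replicate 1 for 3 and GF replicate 3 for 1, and the highest was CG replicate 3 for 5, CG replicate 2 for 2 and CG replicate 1 for 1.

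GHRH (ENSSSCG00000007332), on chromosome 17 from 40386725 to 40398312 of Sscrofa11.1 in the RefSeq annotation, which gives all positions here, is the releasing hormone of the axis. Its level was 0.10, 0.82 and 2.05 TPM in GF replicates 1, 2 and 3, against 13.5, 12.7 and 23.6 TPM in CG replicates 1, 2 and 3. All GF libraries were low, the highest of them lay under the lowest CG library by a wide margin, and CG replicate 3 was the highest. GHRH averaged 0.990 ± 0.986 TPM across GF pigs, against 16.6 ± 6.09 TPM across CG pigs (SD, n = 3 each), which is 16.8-fold lower in GF pigs. On the scale of TPM + 1 the log2FC was -3.21 (standard error 0.40, 95% confidence interval -4.16 to -2.27, adjusted p = 0.0217), a scale that understates changes of low genes. In bulk tissue, fewer GHRH neurons in a sample and less GHRH mRNA per neuron cannot be told apart.

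The GHRH call was kept with any 1 GF library left out (log2FC -3.58 to -2.85, adjusted p = 0.0261 to 0.0461). It was lost without CG replicate 1 (-3.33, adjusted p = 0.0711), 2 (-3.37, adjusted p = 0.0891) or 3 (-2.95, adjusted p = 0.0541), and without GF replicate 1 and CG replicate 3 together (-2.58, adjusted p = 0.0573).

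SST (ENSSSCG00000033815), on chromosome 13 from 125337560 to 125338742, encodes the inhibitory peptide of the axis, which many interneurons outside the hypothalamus also make. Its level was 20.0, 284 and 259 TPM in GF replicates 1, 2 and 3, against 317, 592 and 316 TPM in CG replicates 1, 2 and 3. GF replicate 1 was far below the other libraries, CG replicate 2 was the highest, and GF replicates 2 and 3 lay just under the lowest CG libraries, so that the groups did not overlap. The means were 187 ± 145.5 TPM in GF pigs, against 409 ± 159 TPM in CG pigs (SD, n = 3 each). The fitted log2FC of SST was -1.76 (standard error 0.94, 95% confidence interval -3.96 to 0.44) and did not pass (adjusted p = 0.245). Without GF replicate 1, the library with a hypothalamus marker sum of 1.14 TPM, it was -0.53 (adjusted p = 0.319).

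**Figure D2:**
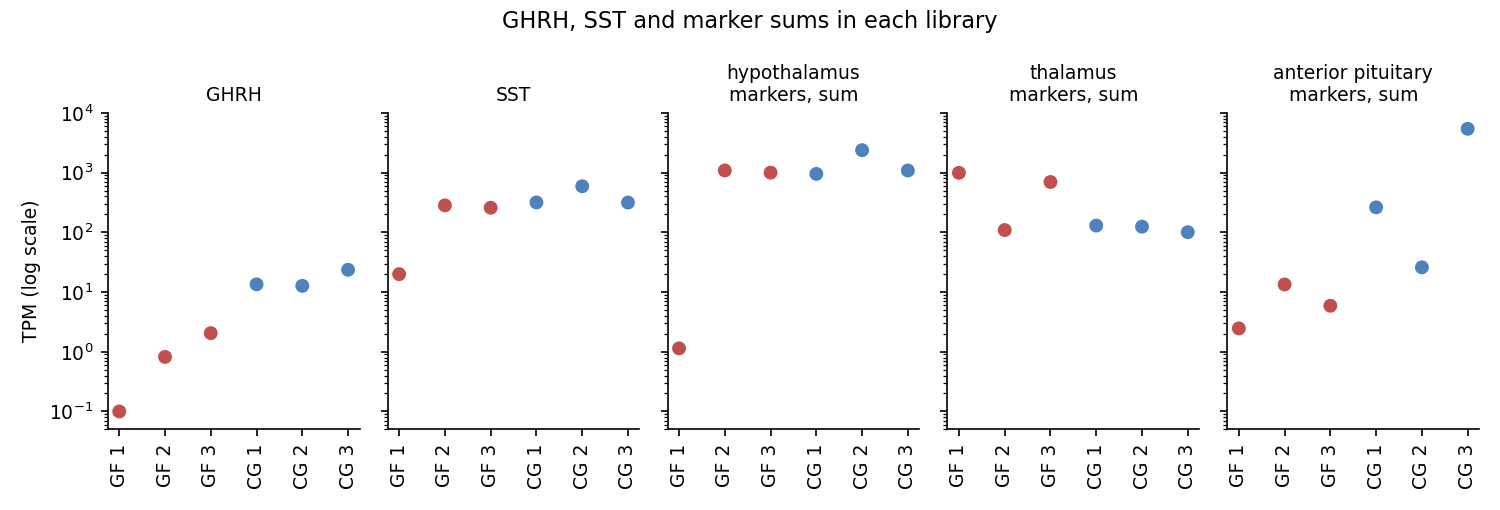
TPM on a log scale of GHRH, SST and the summed markers of the hypothalamus, thalamus and anterior pituitary in the 3 GF (red) and 3 CG (blue) libraries. GF replicate 1 was lowest for GHRH, SST and the hypothalamus markers (1.14 TPM), and CG replicate 3 was highest for the pituitary markers (5442 TPM). Most of the hypothalamus sum was OXT in every library but GF replicate 1.

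SST and GHRH were also compared within each library. SST TPM were 126 to 346 times GHRH TPM in GF libraries, against 23.6, 46.6 and 13.4 times in CG replicates 1, 2 and 3. The plain ratios did not overlap and were higher in GF pigs. On the log2 scale with 1 TPM added to both, the ratio was 5.99 ± 1.56 in GF pigs and 4.53 ± 0.88 in CG pigs (SD, n = 3 each), a difference of 1.46 (exact permutation test, two-sided, p = 0.3). With 0.1 TPM added in place of 1 the difference was 2.67 (exact permutation test, p = 0.1, the smallest that 3 pigs against 3 allow). In GF replicates 1 and 2 the ratios rest on GHRH at 0.10 and 0.82 TPM.

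Against the 10 tested hypothalamus markers of the same library, both genes were also set, a measure that was chosen after the values were seen. Of these markers, 4 (AGRP, BSX, NR5A1 and SIX6) were under 1 TPM in every GF library and passed the filter only through CG libraries, so their mean is low in GF pigs partly by selection, and no test is given. The markers averaged 0.14, 3.07 and 3.04 in GF replicates 1, 2 and 3 on the log2(TPM + 1) scale, against 4.88, 5.28 and 5.11 in CG replicates 1, 2 and 3. Relative to that mean, GHRH stood at -1.21 ± 1.12 in GF pigs and at -1.01 ± 0.51 in CG pigs, a log2 difference of -0.21 (SD, n = 3 each). By library it was -0.0028, -2.21 and -1.43 in GF replicates 1, 2 and 3, against -1.03, -1.51 and -0.49 in CG replicates 1, 2 and 3. In GF replicate 1 both GHRH (0.10 TPM) and the marker mean lay near the floor, so the small group difference rests on that library. Relative SST was 4.77 ± 0.45 in GF pigs and 3.52 ± 0.37 in CG pigs, a log2 difference of 1.25. This higher relative level in GF pigs was not particular to SST. Set against the same markers, the mean log2 differences were larger for SSTR1 (1.43), SSTR2 (2.585), SSTR3 (2.948), GHR (2.232), IGF1 (2.187) and IGF1R (2.371). Of the tested genes described here, SST had the smallest difference above 0. GHRH alone had one below 0 (-0.21), small beside its SD of 1.12 in GF pigs. Since the marker mean is low in GF pigs partly by selection, this order is a description only.

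GHRHR (ENSSSCG00000016673), on chromosome 18 from 42030505 to 42046178, encodes the receptor by which pituitary somatotrophs sense GHRH. It was at 0.04, 0 and 0 TPM in GF libraries and at 0, 0 and 0.46 TPM in CG libraries, so near 0 in all but CG replicate 3. That library also had the highest levels of the anterior pituitary genes GH1 (4.54 TPM, against at most 0.56 TPM elsewhere) and POU1F1 (10.4 TPM, against at most 0.13 TPM elsewhere). Other pituitary hormone genes were far above GH1 there, such as PRL at 679 TPM and TSHB at 604 TPM. The reads behind a TPM are unknown, so a value of 0 does not show that the receptor was absent.

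Somatostatin receptors are inhibitory G protein-coupled receptors, which differ between subtypes in where they occur on the neuron and in ligand preference. SSTR1 (ENSSSCG00000001938), on chromosome 7 from 61890560 to 61900567, can act as an autoreceptor of SST neurons in rodents. Its level was 2.47, 12.1 and 7.57 TPM in GF replicates 1, 2 and 3, against 18.8, 27.6 and 17.3 TPM in CG replicates 1, 2 and 3. As for SST, GF replicate 1 was the lowest and CG replicate 2 the highest library, and the groups did not overlap. The means were 7.37 ± 4.80 TPM in GF pigs, against 21.2 ± 5.60 TPM in CG pigs (SD, n = 3 each). SSTR1 had a log2FC of -1.58 (standard error 0.46, 95% confidence interval -2.66 to -0.50) and did not pass (adjusted p = 0.0769), but it passed without GF replicate 2 (-2.0, adjusted p = 0.0415). Without GF replicate 1 it was -1.04 (adjusted p = 0.111), smaller by over 1.5 times.

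SSTR2 (ENSSSCG00000017249), on chromosome 12 from 7783401 to 7789483, is a subtype found on GHRH neurons in rodents. It was at 2.69, 2.23 and 5.61 TPM in GF pigs, against 4.29, 3.67 and 6.68 TPM in CG pigs. Replicate 3 was the highest library of either group, and the groups overlapped. The log2FC was -0.42 (95% confidence interval -1.19 to 0.34, adjusted p = 0.411). SSTR2 overlaps SLC39A11, a zinc transporter gene at 12.6 to 19.4 TPM in these libraries. The labels name a kit that keeps strand. No source used here says whether reads were then assigned by strand, so reads of both genes may not be fully separated.

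SSTR3 (ENSSSCG00000027106), on chromosome 5 from 10581814 to 10593796, is a receptor of neuronal cilia. It was at 5.94, 4.15 and 5.54 TPM in GF pigs, against 4.95, 5.23 and 6.15 TPM in CG pigs. The libraries were interleaved, with the narrowest interval of the 8 genes (log2FC -0.06, 95% confidence interval -0.52 to 0.39, adjusted p = 0.861). SSTR5 (ENSSSCG00000033234), the subtype that with SSTR2 mediates much of the inhibition of the pituitary, overlapped as well, at 1.55, 0.94 and 1.78 TPM in GF pigs, against 1.62, 2.43 and 1.17 TPM in CG pigs (log2FC -0.17, adjusted p = 0.684, turning above 0 with libraries centred on their median). SSTR4 was not analysed here.

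TPM are set per length, so the subtypes can be compared within a library. The TPM of the 4 matched subtypes summed to 12.7, 19.4 and 20.5 in GF replicates 1, 2 and 3, against 29.6, 39.0 and 31.3 in CG replicates 1, 2 and 3. The sums did not overlap and averaged 17.5 ± 4.25 in GF pigs and 33.3 ± 4.99 in CG pigs (exact permutation test, two-sided, p = 0.1, n = 3 each). SSTR1 held 19.5%, 62.3% and 36.9% of the sum in GF libraries, against 63.3%, 70.9% and 55.3% in CG libraries. It was the leading subtype in GF replicates 2 and 3 and in every CG library, whereas SSTR3 led in GF replicate 1 with 47.0%. SSTR3 held 31.8 ± 13.4% in GF pigs and 16.6 ± 3.12% in CG pigs, without overlap, a difference of 15.2 percentage points (exact permutation test, p = 0.1). The share of SSTR1 differed by -23.6 points (p = 0.2), that of SSTR2 by 4.96 points (p = 0.5) and that of SSTR5 by 3.45 points (p = 0.3), by the same exact test. After adjustment over the 4 subtypes no share passed (lowest adjusted p = 0.4, exact permutation tests).

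**Figure D3:**
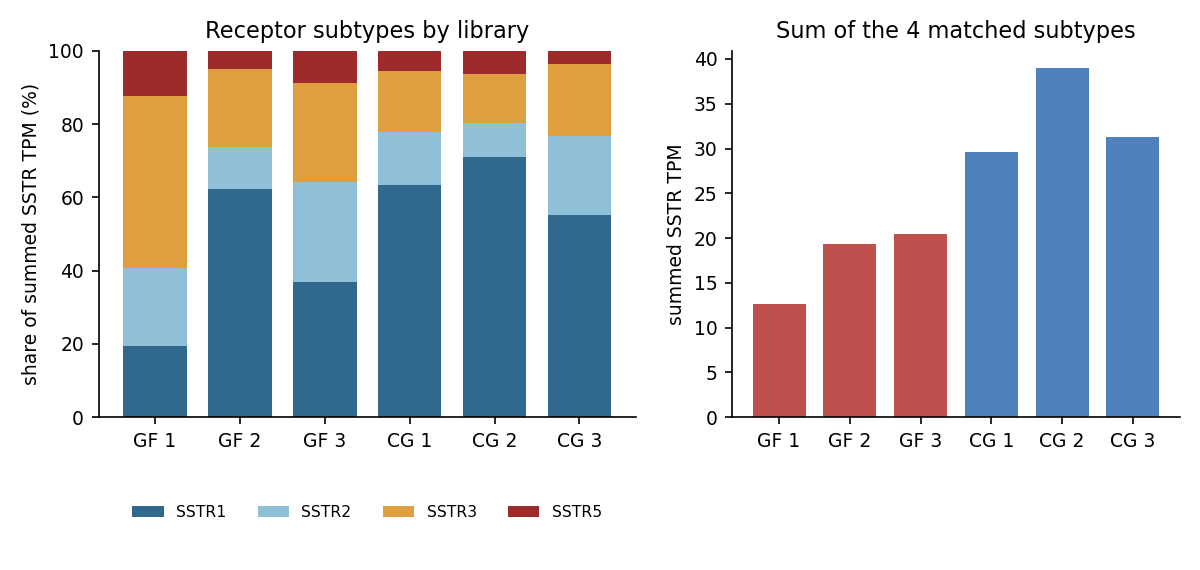
Left, share (%) of the summed TPM of SSTR1, SSTR2, SSTR3 and SSTR5 held by each subtype in each library, and right, that sum in TPM, with GF bars in red and CG bars in blue. SSTR1 took 19.5% to 62.3% in GF libraries and 55.3% to 70.9% in CG libraries, and the sum was 20.5 TPM or less in GF pigs and 29.6 TPM or more in CG pigs.

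GHR (ENSSSCG00000016866), on chromosome 16 from 27126300 to 27422618, is the receptor by which growth hormone acts on its target cells. Its level was 5.26, 5.07 and 7.04 TPM in GF replicates 1, 2 and 3, against 6.65, 10.1 and 17.1 TPM in CG replicates 1, 2 and 3. The groups overlapped at GF replicate 3 and CG replicate 1, and CG replicate 3 was well above the rest. The means were 5.79 ± 1.09 TPM in GF pigs, against 11.3 ± 5.35 TPM in CG pigs (SD, n = 3 each). GHR had a log2FC of -0.78 (standard error 0.32, 95% confidence interval -1.52 to -0.03) and did not pass (adjusted p = 0.151), and the value was -0.45 without CG replicate 3.

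All 5 annotated transcripts of GHR had a value above 0, and 1 of them, ENSSSCT00000062134, was at 0.19, 0.58 and 0.60 TPM in GF pigs, against 2.26, 2.41 and 1.65 TPM in CG pigs. This transcript did not overlap between the groups and, in a fit of all transcripts, was called lower in GF pigs (log2FC -1.10, standard error 0.24, adjusted p = 0.0437), where 5.81% of all tested transcripts were called in either direction. It was under 1 TPM in every GF library, so it passed the filter only through CG libraries and had to differ. It held 3.61%, 11.4% and 8.52% of GHR TPM in GF libraries, against 34.0%, 24.0% and 9.63% in CG libraries, and these shares overlapped. ENSSSCT00000038506, the transcript with the largest share in all but CG replicate 2, was at 2.69, 2.53 and 4.13 TPM in GF pigs, against 3.13, 1.87 and 7.11 TPM in CG pigs (log2FC -0.17, adjusted p = 0.803). ENSSSCT00000065320 was listed above 0 in CG replicate 2 alone, at 2.21 TPM. The authors' estimate had to split reads between transcripts that share exons, so values of single transcripts are less certain than the sum.

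**Figure D4:**
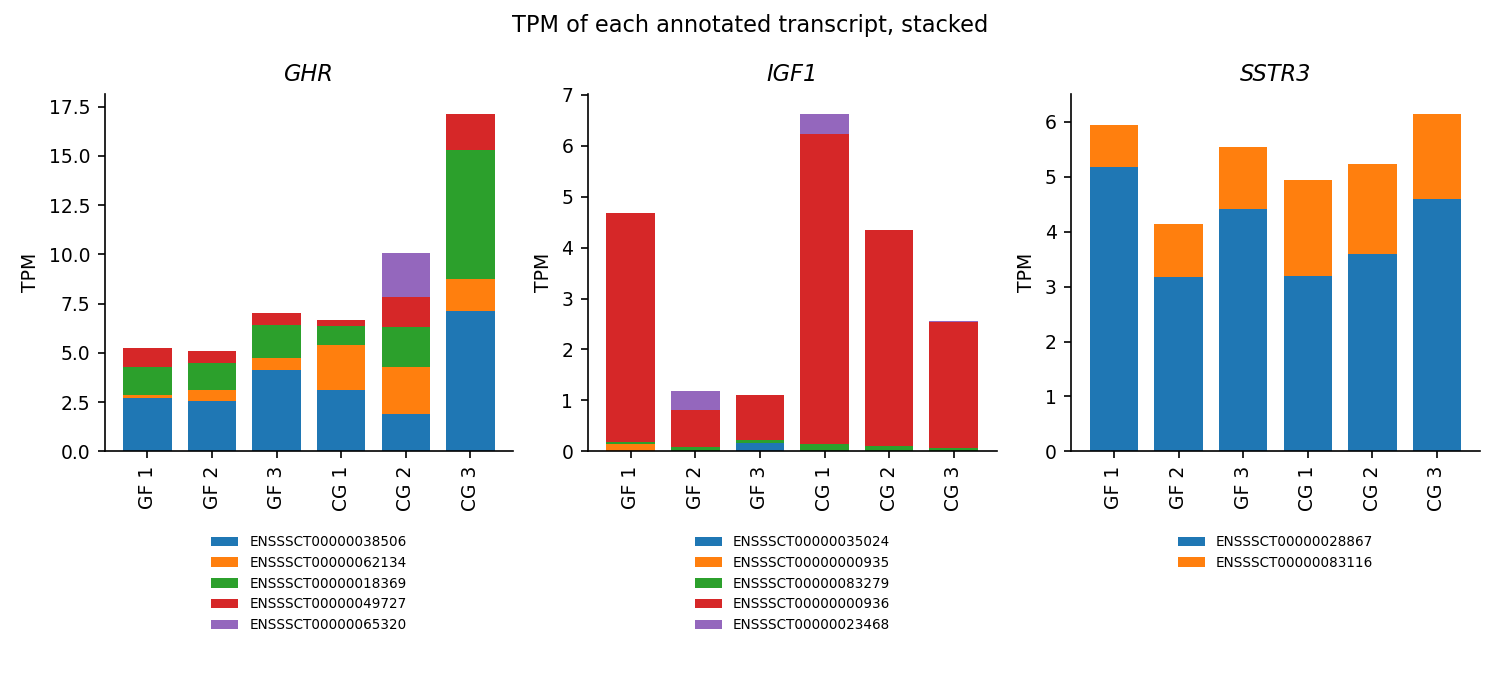
TPM of the annotated transcripts of GHR, IGF1 and SSTR3 that were above 0 in any library, stacked in each GF and CG library. The GHR transcript ENSSSCT00000062134 (orange) was at 0.60 TPM or less in GF pigs and 1.65 TPM or more in CG pigs, and most IGF1 TPM lay in ENSSSCT00000000936 (red).

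IGF1 (ENSSSCG00000000857), on chromosome 5 from 81762027 to 81909253, encodes the growth factor that mediates much of the action of growth hormone and feeds back on its release. Its level was 4.68, 1.19 and 1.11 TPM in GF replicates 1, 2 and 3, against 6.63, 4.34 and 2.55 TPM in CG replicates 1, 2 and 3. GF replicate 1 lay among the CG libraries and the other GF libraries lay below all of them. The means were 2.33 ± 2.04 TPM in GF pigs, against 4.51 ± 2.05 TPM in CG pigs (SD, n = 3 each). The log2FC was -0.82 (standard error 0.45, 95% confidence interval -1.87 to 0.23) and did not pass (adjusted p = 0.255), and without GF replicate 1 it was -1.29 (adjusted p = 0.110). IGF1 thus differed from SST and SSTR1, for which GF replicate 1 was the lowest library. Of its 8 transcripts 5 were above 0, and ENSSSCT00000000936 held 60.5% to 96.2% of IGF1 TPM in GF libraries, against 91.9% to 97.5% in CG libraries.

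IGF1R (ENSSSCG00000030560), on chromosome 1 from 137383623 to 137691038, is the receptor tyrosine kinase of IGF1. It was at 27.6, 24.7 and 28.2 TPM in GF pigs, against 33.4, 35.8 and 62.6 TPM in CG pigs. The GF libraries were tightly grouped below all CG libraries, and CG replicate 3 was the highest, as it was for GHR. The means were 26.8 ± 1.86 TPM in GF pigs, against 44.0 ± 16.2 TPM in CG pigs (SD, n = 3 each). IGF1R had a log2FC of -0.64 (standard error 0.24, 95% confidence interval -1.20 to -0.08) and did not pass (adjusted p = 0.124), and it was -0.36 without CG replicate 3, a change of over 1.5 times. At least 99.1% of IGF1R TPM came from 1 transcript. PGPEP1L, which overlaps the gene, was at 0.34 TPM or less in every library.

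SSTR3 had 2 transcripts above 0, of which ENSSSCT00000028867 held 76.6% to 87.2% of SSTR3 TPM in GF libraries, against 64.6% to 74.8% in CG libraries. The shares did not overlap between the groups. On its own ENSSSCT00000028867 had a log2FC of 0.12 (adjusted p = 0.771), and the minor ENSSSCT00000083116 of -0.44 (adjusted p = 0.213).

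The rest of the pathway was read from a list of 59 further genes by role, of which 52 were matched and 43 tested. Of the 43, 1 was called lower in GF pigs (HMX3) and 0 higher, against 2.42% of all tested genes called lower (2.89% in either direction). When the fold threshold was dropped, 5 were lower, against 4.93% of all tested genes (6.01% in either direction). By limma at an unadjusted p under 0.05, 20 were lower and 1 was higher in GF pigs, against 26.6% and 4.31% of all tested genes. Log2FC values were below 0 for 36 of the 43 (83.7%), against 72.7% of all tested genes, with a median of -0.54. Without overlap, 22 lay below CG pigs and 1 (NTS) above, against 32.8% and 5.42% of all tested genes. With libraries centred on their median, 29 of the 43 were below 0, against 48.7% of all tested genes, with a median of -0.29. Of the 43, 3 (IGFALS, PAPPA2 and SOCS1) passed the filter only through CG libraries.

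**Figure D5:**
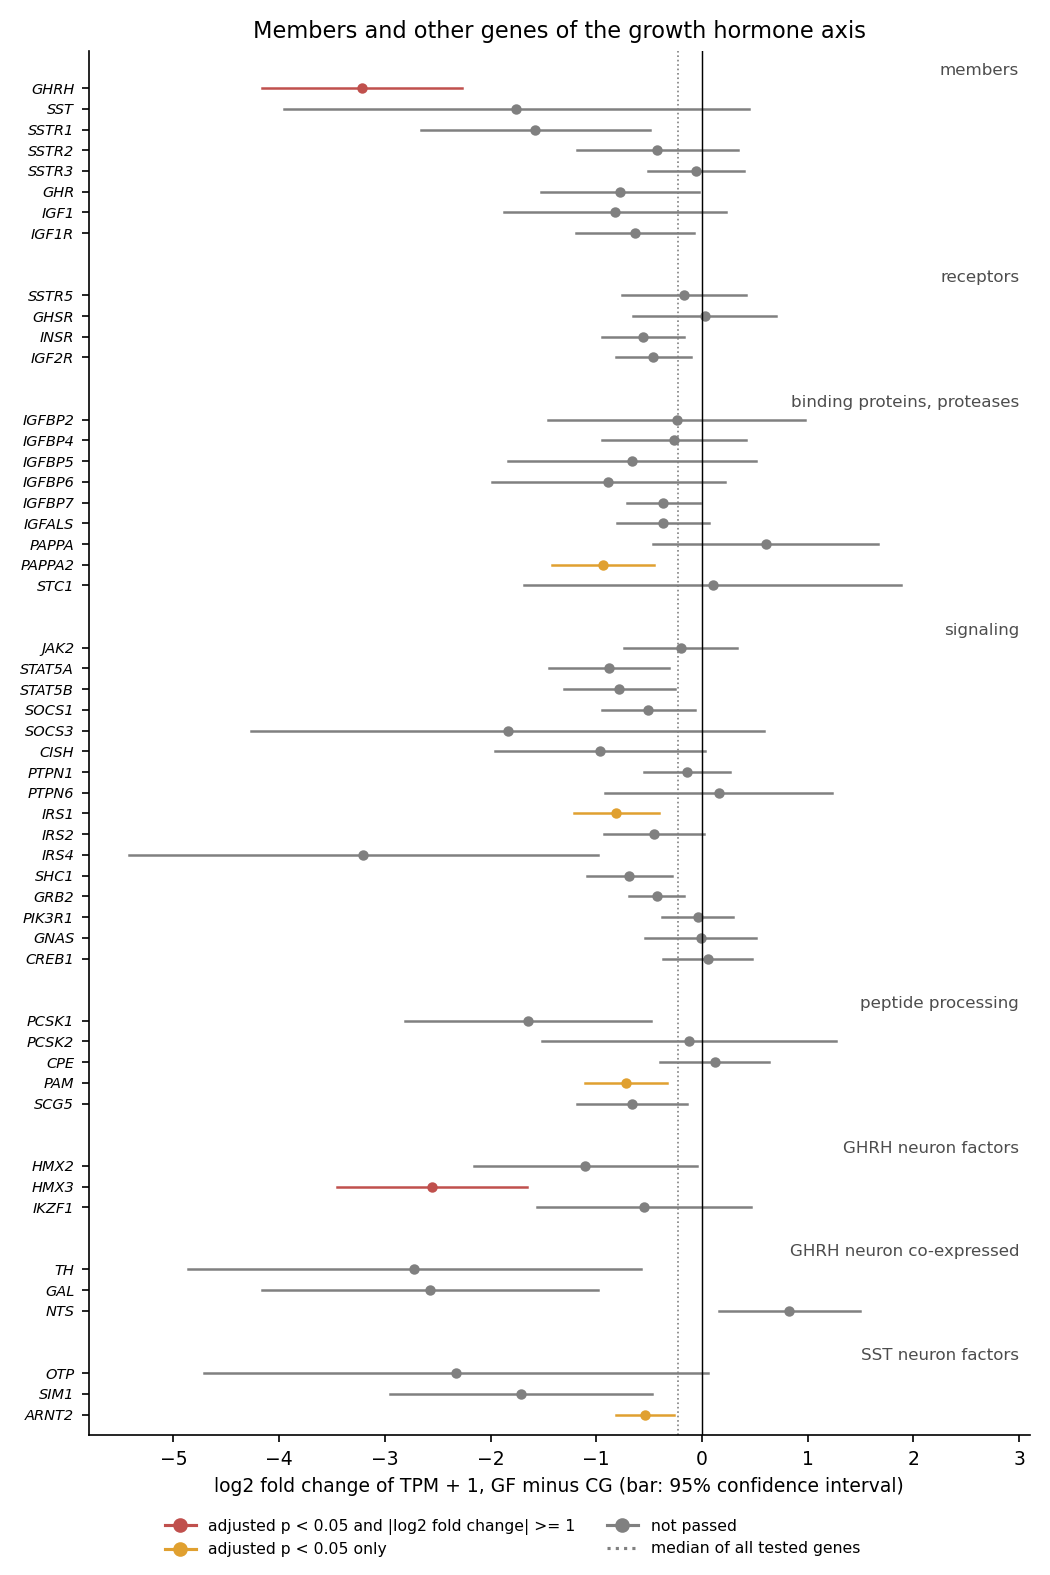
Log2FC of TPM + 1, GF minus CG, with its 95% confidence interval for the 8 tested genes (top, "members") and the 43 other tested genes of the axis by role, with the median of all tested genes as a dotted line at -0.23. GHRH (-3.21) and HMX3 (-2.56) were called (red), 4 genes passed the adjusted p alone (yellow), and SSTR3 (-0.06), SSTR5 (-0.17), GHSR (0.02) and IGFBP2 (-0.24), which all turn sign in some alternative settings, lay near 0.

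Among genes tied to GHRH neurons, HMX3 was the one called. HMX2 and HMX3 are neighbouring homeobox genes that GHRH neurons need in mice. HMX3 was at 0, 1.69 and 0.55 TPM in GF pigs, against 6.78, 11.9 and 7.46 TPM in CG pigs, without overlap (log2FC -2.56, standard error 0.38, adjusted p = 0.0293). The call was lost without each library except GF replicate 2 (adjusted p = 0.0591 to 0.142). HMX2 was at 0, 2.15 and 1.05 TPM in GF pigs, against 1.66, 4.15 and 3.68 TPM in CG pigs, with overlap (log2FC -1.10, adjusted p = 0.148, and -0.66 without GF replicate 1), and IKZF1, a zinc finger factor of these neurons in mice, did not pass (-0.55, adjusted p = 0.420).

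Some GHRH neurons of rodents also contain TH, the first enzyme of dopamine synthesis, and the peptides GAL (galanin) and NTS (neurotensin), all of which other hypothalamic cells make too. TH was at 0.17, 7.67 and 18.7 TPM in GF pigs, against 30.8, 34.3 and 49.99 TPM in CG pigs (log2FC -2.72, adjusted p = 0.0999). GAL was at 2.22, 21.5 and 8.55 TPM in GF pigs, against 47.1, 87.4 and 33.0 TPM in CG pigs (log2FC -2.57, adjusted p = 0.0635). NTS stood the other way, at 105.9, 53.7 and 52.6 TPM in GF pigs, against 32.3, 34.9 and 45.95 TPM in CG pigs (log2FC 0.83, adjusted p = 0.106). None of the 3 passed. Without GF replicate 1 the log2FC was -1.56 for TH and 0.50 for NTS, smaller by over 1.5 times for both.

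The factors that periventricular SST neurons need in mice are OTP, SIM1 and ARNT2. OTP, which is also one of the hypothalamus markers above, was at 0.18, 21.4 and 17.3 TPM in GF pigs, against 33.8, 40.2 and 41.3 TPM in CG pigs (log2FC -2.32, adjusted p = 0.171). SIM1 was at 0.05, 2.75 and 3.59 TPM in GF pigs, against 7.16, 9.63 and 6.38 TPM in CG pigs (log2FC -1.72, adjusted p = 0.0843). Both were near 0 in GF replicate 1, where SST was also at its lowest, and without that library the log2FC was -0.96 for OTP and -1.06 for SIM1. ARNT2 passed the adjusted p without the fold threshold (128.5, 135 and 141 TPM in GF pigs, against 189, 213 and 187 TPM in CG pigs, log2FC -0.54, adjusted p = 0.0469).

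Of 5 genes of peptide processing, 1 (PAM) was lower at an adjusted p under 0.05, against 4.93% of all tested genes. PAM did not reach the fold threshold, and the others did not pass. PAM, the enzyme that amidates peptides such as GHRH, was at 129, 146 and 194 TPM in GF pigs, against 251, 262 and 253 TPM in CG pigs (log2FC -0.72, adjusted p = 0.04995). PCSK1, a convertase that cuts prohormones, was at 20.0, 45.5 and 57.4 TPM in GF pigs, against 70.9, 106 and 225 TPM in CG pigs (log2FC -1.65, adjusted p = 0.0804). SCG5, a chaperone of the convertase PCSK2, had a log2FC of -0.66 (adjusted p = 0.101).

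Among 16 tested signaling genes, 0 were called, 1 (IRS1) passed the adjusted p alone and 7 were lower at an unadjusted p under 0.05 (limma), against 4.93% and 26.6% of all tested genes. IRS1, an adaptor of IGF1R and the insulin receptor, was at 16.0, 13.1 and 11.99 TPM in GF pigs, against 22.6, 22.9 and 28.7 TPM in CG pigs (log2FC -0.81, adjusted p = 0.0469). The adaptors SHC1 (-0.69, adjusted p = 0.0575) and GRB2 (-0.43, adjusted p = 0.0605) followed. IRS4, an adaptor abundant in the hypothalamus, is named after its values were seen. IRS4 was at 1.36, 43.4 and 20.7 TPM in GF pigs, against 108, 139 and 115 TPM in CG pigs (log2FC -3.20, standard error 0.95, adjusted p = 0.0783, and -1.96 without GF replicate 1). Its GF libraries followed the order of SSTR1, with GF replicate 1 lowest and GF replicate 2 highest.

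Of the 9 tested binding proteins and proteases, 1 was lower at an adjusted p under 0.05, against 4.93% of all tested genes. This was PAPPA2, a protease that frees IGF1 from its binding proteins, which did not reach the fold threshold. It was at 0.27, 0.39 and 0.75 TPM in GF pigs, against 1.72, 1.63 and 2.01 TPM in CG pigs (log2FC -0.93, adjusted p = 0.0474), so it entered the test only through CG libraries and had to differ. IGFBP7 (-0.37, adjusted p = 0.142) and IGFALS (-0.37, adjusted p = 0.219) did not pass. IGFBP2, an abundant binding protein of brain, overlapped between the groups, at 22.7, 8.83 and 6.31 TPM in GF pigs, against 9.51, 9.14 and 25.2 TPM in CG pigs (log2FC -0.24, adjusted p = 0.790, turning above 0 in some settings). The adjusted p of ARNT2, PAM, IRS1 and PAPPA2 was above 0.05 with mitochondrial genes out of the scaling (0.0715 to 0.0910), and above it with any 1 library left out, except ARNT2 without GF replicate 2 (0.0439).

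The other receptors did not pass. INSR, the insulin receptor, was at 32.6, 37.5 and 34.0 TPM in GF pigs, against 47.1, 44.8 and 64.6 TPM in CG pigs (log2FC -0.56, adjusted p = 0.0799), and IGF2R, the clearance receptor of IGF2, had a log2FC of -0.46 (adjusted p = 0.0947). GHSR, the ghrelin receptor, which stimulates growth hormone release, was at 7.32, 13.2 and 12.6 TPM in GF pigs, against 11.6, 13.4 and 7.41 TPM in CG pigs. The groups overlapped (log2FC 0.02, 95% confidence interval -0.65 to 0.70, adjusted p = 0.965), with a sign that turned without GF replicate 2 or 3 or CG replicate 3 and with libraries centred on pan-neuronal markers. Of the ligands, 4 were matched and 0 were tested, among them GH1 at 0.56, 0 and 0.44 TPM in GF pigs, against 0, 0 and 4.54 TPM in CG pigs. IGF2 and IGFBP3 were not analysed here.

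Over the 6 libraries, the log2(TPM + 1) values of GHRH were most like those of ZMYND8 (Pearson r = 0.9992), TNRC6A (0.9987) and MTMR3 (0.9978), out of 10787 genes with a symbol and a mean of at least 5 TPM. The libraries fell in the same order for these genes as for GHRH, apart from CG replicates 1 and 2 of MTMR3, at higher levels and with smaller differences. ZMYND8, a chromatin reader, was at 39.7, 41.8 and 44.7 TPM in GF pigs, against 54.4, 53.3 and 57.2 TPM in CG pigs (log2FC -0.38, adjusted p = 0.0802). TNRC6A, a partner of Argonaute proteins in silencing by miRNAs, had a log2FC of -0.78 (adjusted p = 0.0425), and MTMR3, a lipid phosphatase, of -0.43 (adjusted p = 0.0629).

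SST was most like ALCAM (0.9934), a cell adhesion molecule, PPM1M (0.9924), a protein phosphatase, and TMEM74B (0.9914). ALCAM was at 36.9, 74.6 and 76.3 TPM in GF pigs, against 87.0, 99.8 and 80.5 TPM in CG pigs, with GF replicate 1 lowest and CG replicate 2 highest, as for SST. IGF1 was most like NDUFB7 (0.9919), a subunit of respiratory complex I, ADGRB1 (0.9911), an adhesion receptor, and SYNDIG1 (0.9857), a synaptic membrane protein. IGF1R was most like INTS14 (0.9962), an Integrator subunit, DPP7 (0.9959), a peptidase, and SPRY1 (0.9938), an inhibitor of receptor tyrosine kinase signaling. SPRY1 was at 10.3, 9.66 and 9.94 TPM in GF pigs, against 13.3, 13.6 and 25.1 TPM in CG pigs. With 6 libraries in 2 groups and this many genes compared, coefficients near 1 were found for each of the 4 genes, and they are given as a description.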

How the data were processed

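Long RNA libraries of the hypothalamus were available for 3 GF pigs and for 3 CG pigs. The values that the authors deposited are TPM of 47559 annotated mRNA transcripts, which sum to 793723 to 845526 per library and keep no sequencing depth, so no counting error could be given. Per the labels, the authors used fastp, HISAT, RSEM and a kit that keeps strand, while the paper's methods give rRNA depletion, TopHat, Cufflinks, HTSeq and Sscrofa11.1. Transcript TPM were added up per gene. Genes with at least 1 TPM in at least 3 libraries (14641 of 19256) were fitted as log2(TPM + 1) with limma 3.58.1 (limma-trend) in R 4.3.3, GF minus CG, with Benjamini-Hochberg adjustment. The thresholds are the study's. Its edgeR needs counts and was not run. Single values were compared by exact permutation tests, and no p of 3 pigs against 3 falls below 0.1. Further steps ran in Python 3.11.15 (scipy 1.17.1 for the exact tests, pandas 2.3.3 and numpy 2.4.6 for tables, matplotlib 3.10.9 for plots), and the limma fit was tested on simulated data. RefSeq (Sscrofa11.1) gave positions.

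The genes described, the 59 further axis genes and the 14 marker lists were chosen with earlier results of these data known. Named are all 9 genes, of the axis list those called and up to 3 others per role with the smallest p, some genes fixed by name (GH1, GHSR, SSTR5, IGFBP2), the 3 genes most like GHRH, SST, IGF1 and IGF1R over the 6 libraries, and, after its values were seen, IRS4. Alternatives were another pseudocount, no filter, no fold threshold, other scalings, left-out libraries, a replicate block and single transcripts. The lncRNA and small RNA values were not used here, and some genes that the lists cover are not analysed here.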

Additional observations from a re-analysis of the deposited data

How the results depend on the processing

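Depth is unknown for TPM, so the spread between 3 pigs per group sets the precision. The 423 mRNA genes called (69 higher, 354 lower in GF pigs) became 192 with no low-value filter, 880 with no fold threshold, 185 with mitochondrial genes out of the scaling, 219 with libraries centred on their median (122 higher, 97 lower), 134 centred on pan-neuronal markers (40 higher, 94 lower), 22 to 717 with 1 library left out, 1 without GF replicates 1 and 3 (3571 at an unadjusted p under 0.05), 40 without CG replicates 1 and 2, and 31 without GF replicate 1 and CG replicate 3, the last chosen after seeing the data. With the replicate block, 35 genes were called (17 higher, 18 lower). Same-numbered pigs did not deviate together (r = -0.02, 0.06 and -0.01), so the numbers pair nothing. With the block GHRH (-3.21, adjusted p = 0.0284) and HMX3 (adjusted p = 0.0450) were still called, while the adjusted p of ARNT2, PAM, IRS1 and PAPPA2 was above 0.05 (0.0864 to 0.0943).

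Of the 9 genes, 1 was called, which was 0 to 2 with 1 library left out (2 without GF replicate 2, GHRH and SSTR1), 0 without GF replicates 1 and 3 (GHRH -3.22, adjusted p = 0.0937), 0 without CG replicates 1 and 2 (GHRH -3.75, adjusted p = 0.0778) and 0 without GF replicate 1 and CG replicate 3. A library left alone in its group is assumed to vary like the others. Of the other axis genes, 1 was called, which was 0 with a pseudocount of 0.1, 5 with no fold threshold, 5 centred on pan-neuronal markers, 0 to 4 with 1 library left out, 0 without GF replicates 1 and 3 and 0 without GF replicate 1 and CG replicate 3. The sign of the log2 fold change turned for SSTR3 (0.025 with mitochondrial genes out of the scaling, 0.18 with median centring, 0.12 for transcript ENSSSCT00000028867, -0.15 to 0.069 with 1 library left out), SSTR5 (0.075 with median centring, -0.32 to 0.0069 with 1 library left out, 0.14 without CG replicates 1 and 2), IKZF1 (0.036 without GF replicates 1 and 3, 0.071 without CG replicates 1 and 2), GHSR (-0.055 centred on pan-neuronal markers, -0.20 to 0.27 with 1 library left out) and IGFBP2 (0.0058 with median centring, -0.73 to 0.21 with 1 library left out). The differences in share turned for SSTR2 (-3.58 points without GF replicates 1 and 3, -1.30 without CG replicates 1 and 2) and SSTR5 (-0.30 points without GF replicates 1 and 3). The causes were not tested. GHRH, SST, SSTR1, SSTR2, GHR, IGF1 and IGF1R kept a log2 fold change below 0 in all settings run, which do not include the values relative to the hypothalamus markers.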
